A study of Mus musculus with 9 samples.

Results

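Neutrophil marker genes, 10 symbols widely used to recognise these cells in mice, were followed in liver RNA: S100a8, S100a9, Csf3r, Cxcr2, Il1r2, Mmp8, Mmp9, Retnlg, Clec4d and Ly6g. They were picked by symbol from the gene-level table of mRNA values, and all 10 were found among its 21870 genes. Values are FPKM, fragments per kilobase of transcript, scaled to the number of mapped fragments. Livers came from wild-type C57 BL6 mice, 8 weeks old and 20 g on average, in 3 groups of 3 libraries. The dmPGE2+APAP mice received 300 μg/kg dmPGE2, a stable analogue of prostaglandin E2, 1 h ahead of 500 mg/kg acetaminophen (APAP), a painkiller that injures the liver in overdose. The APAP mice received the same 500 mg/kg APAP alone, and the control mice received saline. All injections that the labels describe were intraperitoneal, and tissue was taken 6 h after APAP. There was no group with dmPGE2 alone. The labels do not say that each library is 1 mouse, so p-values measure the spread between these libraries.

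Neutrophils are short-lived phagocytes that leave the blood when chemokines such as CXCL1 and CXCL2 reach the receptor CXCR2. They mature and are released under G-CSF, which acts through the receptor encoded by Csf3r, and they carry granules with proteases such as MMP8 and MMP9. In acetaminophen injury they are known to enter the liver around dying hepatocytes.

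Fitted with no filter on low values, 6 of the 10 genes were called higher in APAP livers than in control, as were 8.65% of all 17519 genes detected, and 1 of the 10, Clec4d, in dmPGE2+APAP livers, against 5.45%. Among the 7 genes that passed the filter given below, 5 rose in APAP livers over control, where 11% of all genes tested rose, and 2 rose in dmPGE2+APAP livers, against 8.7%. Clec4d is in each of these counts, and it passed the filter through the APAP libraries alone, so its place among the 5 is partly set by the filter. Il1r2 is among the 5 and the 2, and it passed the filter through treated libraries alone, with all 3 controls below 0.5 FPKM. Between dmPGE2+APAP and APAP livers 0 of the 7 passed, as did 0% of all genes, although the level was lower in every dmPGE2+APAP library than in any APAP library for 5 of the 10 (8.27% of all genes detected). Levels were low, and APAP replicate 1 held the highest value for 9 of the 10 genes. Without that library 4 of the 7 rose in APAP livers over control, as did 918 of all 11557 genes tested. In dmPGE2+APAP livers 2 rose over control, as did 863 of all, and 0 passed between dmPGE2+APAP and APAP. The genes tested were still those chosen with all 9 libraries, and without that library Clec4d and Mmp9 would not have met the filter. Ly6g, the antigen that defines mouse neutrophils in antibody staining, was listed at 0 in 7 of the 9 libraries, so the data do not show the whole marker set together, and the genes are called marker genes here and not a measure of neutrophil number. In bulk tissue, more cells of a type and more RNA per cell cannot be told apart.

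A gene was tested when at least 3 libraries reached 0.5 FPKM. Of the 10 genes 7 met this, and Cxcr2, Mmp8 and Ly6g did not. S100a8 was above 0.5 FPKM in all 9 libraries. S100a9 lay below it in 1 library and Retnlg in 2, all of them controls. Csf3r lay below in 3 libraries (2 of dmPGE2+APAP and 1 control), Il1r2 in 4 (1 of APAP and 3 controls) and Mmp9 in 6 (3 of dmPGE2+APAP, 1 of APAP and 2 controls). Clec4d was below 0.5 FPKM in all 6 dmPGE2+APAP and control libraries and above it in the 3 APAP libraries alone, so that it could pass the filter only by being high there. Cxcr2 and Mmp8 were below in 8 libraries each, all but APAP replicate 1, and Ly6g in all 9. Nearest to the limit were APAP replicate 2 for Mmp9, at 0.496 FPKM, and dmPGE2+APAP replicate 3 for Il1r2, at 0.501 FPKM.

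Across the series, the sum of FPKM over all genes of a library lay between 371958 and 393938, and between 9979 and 10321 genes per library reached 1 FPKM. Depth is unknown, since the tables deposited as read counts do not hold counts. Of 11557 genes tested, 2414 passed between APAP and control (20.9%) and 1883 between dmPGE2+APAP and control (16.3%). Between dmPGE2+APAP and APAP 0 passed with limma, while 1061 had an unadjusted p under 0.05. The shift that rescaling adds on the log2 scale is 0.11 for APAP over control, 0.14 for dmPGE2+APAP over control and 0.028 for dmPGE2+APAP over APAP, and all fold changes below are relative to it. Of the calls against control, 52.7% for APAP and 53.4% for dmPGE2+APAP were higher, and without rescaling 31.6% and 28.5%. Hepatocyte genes (Alb, Apoa1, Ttr, Cps1, Asgr1 and Cyp2e1) summed to at least 32582 FPKM in every library, as the label liver implies.

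**Figure D1:**
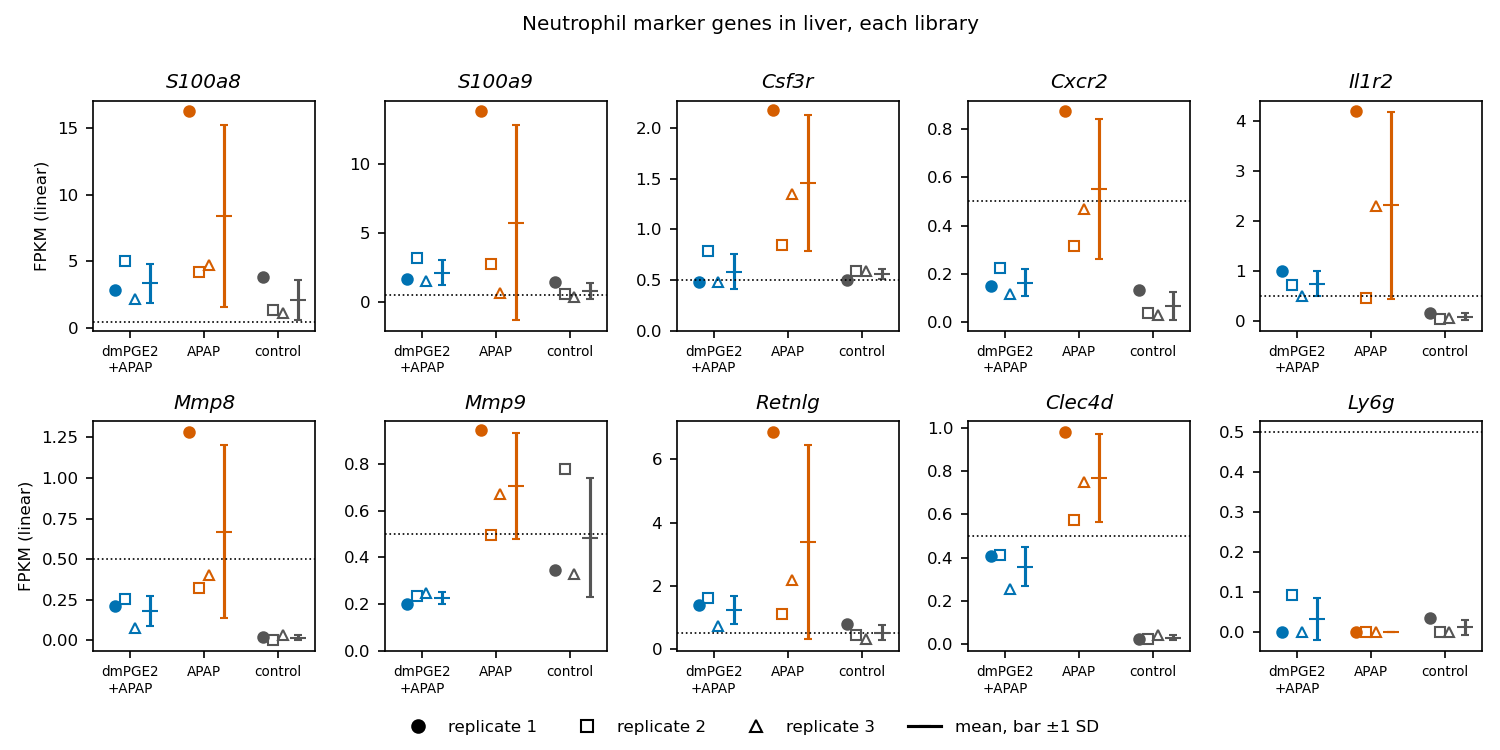
FPKM (linear axis) of the 10 marker genes in each library of the dmPGE2+APAP, APAP and control groups, with the group mean and SD (n = 3) beside the points and a dotted line at 0.5 FPKM. APAP replicate 1 (filled orange circle) is the highest point for every gene except Ly6g, and the control points of Clec4d and Mmp8 lie near 0.

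S100a8 and S100a9 encode the calcium-binding subunits of calprotectin, the most abundant cytosolic protein of neutrophils, which monocytes also make. S100a8 (ENSMUSG00000056054, GRCm38 chromosome 3, from 90668978 to 90670035) was at 2.89, 5.01 and 2.21 FPKM in dmPGE2+APAP replicates 1 to 3, at 16.2, 4.21 and 4.71 FPKM in APAP replicates and at 3.87, 1.39 and 1.11 FPKM in control replicates. All APAP libraries were above all controls, while the dmPGE2+APAP libraries overlapped both other groups. S100a8 rose 3.89-fold in APAP livers over control (8.38 ± 6.80 against 2.12 ± 1.51 FPKM, mean ± SD, n = 3 each here and throughout, log2 1.96, SE 0.59, limma adjusted p = 0.0449). This call was close to the threshold. It was lost without APAP replicate 1 or 3, control replicate 2 or 3 or any 1 of the dmPGE2+APAP libraries (limma adjusted p from 0.0546 to 0.118). It was also lost with 1 in place of 0.1 added before the log, with no filter, with no abundance trend and with the APAP and control libraries alone (limma adjusted p from 0.0509 to 0.077). Its log2 fold change was 1.35 without APAP replicate 1 and 2.49 without control replicate 1.

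S100a9 (ENSMUSG00000056071, chromosome 3, from 90692632 to 90695721) was at 1.72, 3.20 and 1.51 FPKM in dmPGE2+APAP replicates 1 to 3, at 13.8, 2.78 and 0.693 FPKM in APAP replicates and at 1.44, 0.571 and 0.350 FPKM in control replicates. The APAP libraries spanned a wide range, and the lowest of them lay below the highest control. The difference of APAP from control did not pass (log2 2.13, SE 0.91, limma adjusted p = 0.127). It depended on single libraries, since the log2 value was 1.06 without APAP replicate 1 and 3.15 without APAP replicate 3, where the limma adjusted p was 0.0278. The dmPGE2+APAP libraries were all above the controls (log2 1.58, 95% interval from −0.46 to 3.62), which did not pass (limma adjusted p = 0.271). Per length, S100a9 stood at 0.595, 0.639 and 0.685 of the S100a8 level in dmPGE2+APAP replicates 1 to 3, at 0.853, 0.661 and 0.147 in APAP replicates and at 0.373, 0.410 and 0.314 in control replicates. The ratio of the subunits was thus higher in every dmPGE2+APAP library than in any control, and it was most uneven among APAP libraries.

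The calprotectin genes are neighbours on chromosome 3 and are read from opposite strands. Their promoters, from RefSeq for GRCm38.p6, are shown because these genes are the most abundant of the set, and that of Clec4d because its groups were the best separated. Each window runs from 250 bases before to 50 bases after the RefSeq start, 5′ to 3′ on the gene's strand, at chr3:90668821-90669120 (plus strand), chr3:90695672-90695971 (minus strand) and chr6:123261857-123262156 (plus strand). Capitals mark matches to 3 motifs of myeloid or core promoters: TTNCNNAA, a C/EBP-type motif, and AGGAAGT, the PU.1-type site, both on either strand, and TATAAA on the sense strand. No marked matches overlap.
S100a8 promoter: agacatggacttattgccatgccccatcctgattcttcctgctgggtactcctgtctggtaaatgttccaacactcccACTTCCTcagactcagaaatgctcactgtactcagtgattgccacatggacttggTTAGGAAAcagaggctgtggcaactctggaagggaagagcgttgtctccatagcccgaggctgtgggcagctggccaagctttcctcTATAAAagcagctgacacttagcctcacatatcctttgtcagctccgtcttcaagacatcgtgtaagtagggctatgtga
S100a9 promoter: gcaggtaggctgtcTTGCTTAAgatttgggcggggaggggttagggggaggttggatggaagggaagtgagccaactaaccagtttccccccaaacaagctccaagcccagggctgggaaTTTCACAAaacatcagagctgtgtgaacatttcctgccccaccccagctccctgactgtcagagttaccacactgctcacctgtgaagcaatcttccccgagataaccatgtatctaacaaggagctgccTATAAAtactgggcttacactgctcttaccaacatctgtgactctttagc
Clec4d promoter: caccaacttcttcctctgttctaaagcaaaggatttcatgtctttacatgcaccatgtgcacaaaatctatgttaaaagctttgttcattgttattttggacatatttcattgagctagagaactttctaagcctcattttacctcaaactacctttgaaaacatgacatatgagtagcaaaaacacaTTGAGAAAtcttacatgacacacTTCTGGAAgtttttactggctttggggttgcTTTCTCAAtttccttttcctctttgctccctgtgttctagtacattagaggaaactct

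Both calprotectin windows hold a TATAAA, which starts 30 bases before the RefSeq start in S100a8 and at the first base of the RefSeq transcript in S100a9. Promoters were matched for 9 of the 10 genes (10 windows, with 2 for Ly6g), and none was matched for Mmp9. The C/EBP-type motif was found for 6 of the 9 genes (S100a8, S100a9, Mmp8, Retnlg, Clec4d and Ly6g), where 40.7% of all 32851 promoter windows hold it. The PU.1-type motif was found for 3 (S100a8, Mmp8 and Ly6g), against 9.35% of all windows, and TATAAA for 3 (S100a8, S100a9 and Ly6g), against 8.32%. These matches describe the letters of the windows and are not evidence of binding.

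All 3 receptor genes of the set were higher in APAP livers than in control, Cxcr2 in the fit with no filter. Il1r2 (ENSMUSG00000026073, chromosome 1, from 40074079 to 40125231) encodes a decoy receptor that binds interleukin-1 without signalling. It was at 1.01, 0.727 and 0.501 FPKM in dmPGE2+APAP replicates 1 to 3, at 4.19, 0.449 and 2.30 FPKM in APAP replicates and at 0.160, 0.0298 and 0.0599 FPKM in control replicates. Every library of either treated group was above every control, while the dmPGE2+APAP values lay inside the APAP range. Il1r2 rose 10.6-fold in APAP livers over control (log2 3.40, SE 0.65, limma adjusted p = 0.00724), a call kept without each library in turn at limma adjusted p of up to 0.0317. The size is uncertain, since the log2 value was 2.77 without APAP replicate 1 and 4.24 without APAP replicate 2. The control mean of 0.0832 FPKM lies below the 0.1 added before the log, and with 0.01 or 1 added the log2 value was 4.50 or 1.45. It rose 4.94-fold in dmPGE2+APAP livers over control (log2 2.31, limma adjusted p = 0.0414). That second call was lost without any 1 of the dmPGE2+APAP or control libraries or without APAP replicate 3 (limma adjusted p from 0.0576 to 0.122), and with no filter or quantile normalization (0.0664 and 0.0886). With 1 added before the log, the log2 value was 0.71 (limma adjusted p = 0.23).

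Csf3r (ENSMUSG00000028859, chromosome 4, from 126024550 to 126044440) encodes the G-CSF receptor. It was at 0.481, 0.786 and 0.480 FPKM in dmPGE2+APAP replicates 1 to 3, at 2.18, 0.849 and 1.34 FPKM in APAP replicates and at 0.498, 0.592 and 0.585 FPKM in control replicates. The APAP libraries stood above all 6 others, which overlapped. Csf3r rose 2.38-fold in APAP livers over control (1.46 ± 0.672 against 0.558 ± 0.0522 FPKM, log2 1.25, SE 0.30, limma adjusted p = 0.019). The call was lost without APAP replicate 3 or control replicate 1 (limma adjusted p of 0.0528 and 0.0549). Between dmPGE2+APAP and control the log2 difference was 0.14 (95% interval from −0.54 to 0.82), and it was −0.053 without dmPGE2+APAP replicate 2. Of the 50-base stretches in Csf3r transcripts 10.5% also occur in transcripts of other genes, so part of its value may hold reads of others.

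Cxcr2 (ENSMUSG00000026180, chromosome 1, from 74153989 to 74161246), the receptor for CXCL1 and CXCL2, was at 0.15, 0.225 and 0.117 FPKM in dmPGE2+APAP replicates 1 to 3, at 0.871, 0.314 and 0.467 FPKM in APAP replicates and at 0.136, 0.0390 and 0.0300 FPKM in control replicates. All APAP libraries were above the other 6. It was below the filter, and in the fit with no filter, which tests 17519 genes, it was 3.90-fold higher in APAP livers than in control (log2 1.96, limma adjusted p = 0.0085). The means were 0.551 ± 0.288 FPKM in APAP and 0.0683 ± 0.0587 FPKM in control livers, so that the 0.1 added before the log makes this fold too small. Of its 50-base stretches 4.01% also occur in other genes.

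Among the granule and secreted products, Retnlg (ENSMUSG00000022651, chromosome 16, from 48872621 to 48874496), a resistin-like secreted protein, had the highest level. It was at 1.37, 1.59 and 0.711 FPKM in dmPGE2+APAP replicates 1 to 3, at 6.88, 1.08 and 2.18 FPKM in APAP replicates and at 0.776, 0.448 and 0.297 FPKM in control replicates. All APAP libraries were above all controls, and dmPGE2+APAP replicate 3 lay below the highest control. Retnlg rose 4.93-fold in APAP livers over control (log2 2.30, SE 0.59, limma adjusted p = 0.0248), a call lost without APAP replicate 3 or control replicate 2 or 3 (limma adjusted p of 0.0586, 0.0649 and 0.0637). Its log2 fold change was 1.61 without APAP replicate 1. In dmPGE2+APAP livers against control the log2 difference was 1.25 (95% interval from −0.09 to 2.59) and did not pass (limma adjusted p = 0.187).

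Mmp8 (ENSMUSG00000005800, chromosome 9, from 7558456 to 7568485), the neutrophil collagenase, was at 0.210, 0.254 and 0.0742 FPKM in dmPGE2+APAP replicates 1 to 3, at 1.29, 0.324 and 0.402 FPKM in APAP replicates and at 0.0189, 0 and 0.0314 FPKM in control replicates. The 3 groups did not overlap, with APAP highest and control lowest. Below the filter, it was 5.88-fold higher in APAP livers than in control in the fit with no filter (log2 2.56, limma adjusted p = 0.00817). The 0.1 added before the log makes this fold too small.

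Mmp9 (ENSMUSG00000017737, chromosome 2, from 164940780 to 164955850), a gelatinase that other leukocytes and stromal cells also make, did not follow the same order. It was at 0.198, 0.233 and 0.246 FPKM in dmPGE2+APAP replicates 1 to 3, at 0.945, 0.496 and 0.671 FPKM in APAP replicates and at 0.347, 0.780 and 0.328 FPKM in control replicates. Its dmPGE2+APAP libraries were below those of both other groups, and APAP and control libraries overlapped. None of its comparisons passed: the log2 difference was −1.25 for dmPGE2+APAP against APAP (95% interval from −1.99 to −0.52, unadjusted p = 0.0038 and adjusted p = 0.327 in limma), −0.66 for dmPGE2+APAP against control (limma adjusted p = 0.206) and 0.60 for APAP against control (limma adjusted p = 0.223).

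Clec4d (ENSMUSG00000030144, chromosome 6, from 123262111 to 123275265) encodes a C-type lectin of myeloid cells that recognises glycolipids of mycobacteria. It was at 0.407, 0.412 and 0.253 FPKM in dmPGE2+APAP replicates 1 to 3, at 0.981, 0.574 and 0.748 FPKM in APAP replicates and at 0.0232, 0.0224 and 0.0443 FPKM in control replicates. The 3 groups were separate, in the order APAP, dmPGE2+APAP and control. Clec4d rose 6.78-fold in APAP livers over control (0.768 ± 0.204 against 0.0300 ± 0.0124 FPKM, log2 2.76, SE 0.26, limma adjusted p = 0.000298) and 3.64-fold in dmPGE2+APAP livers over control (log2 1.86, limma adjusted p = 0.00228). Both calls held in all 18 alternatives, with limma adjusted p of up to 0.0024 and up to 0.0208. With a library left out, the genes tested with all 9 were kept. Otherwise Clec4d would not have met the filter with an APAP library left out. The size depends on the constant added before the log, since the log2 value of APAP over control was 4.38 with 0.01 and 0.79 with 1.

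Ly6g (ENSMUSG00000022582, chromosome 15, from 75155240 to 75159126) encodes a membrane protein anchored by a lipid tail. It was listed at 0.0910 FPKM in dmPGE2+APAP replicate 2, at 0.0326 FPKM in control replicate 1 and at 0 in the 7 other libraries, all 3 of APAP among them. It is a member of a family of close relatives, but only 0.45% of the 50-base stretches of its transcripts also occur in other genes, Ly6i among them. Whether reads were split between them was not tested. No fold is given for it.

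**Figure D2:**
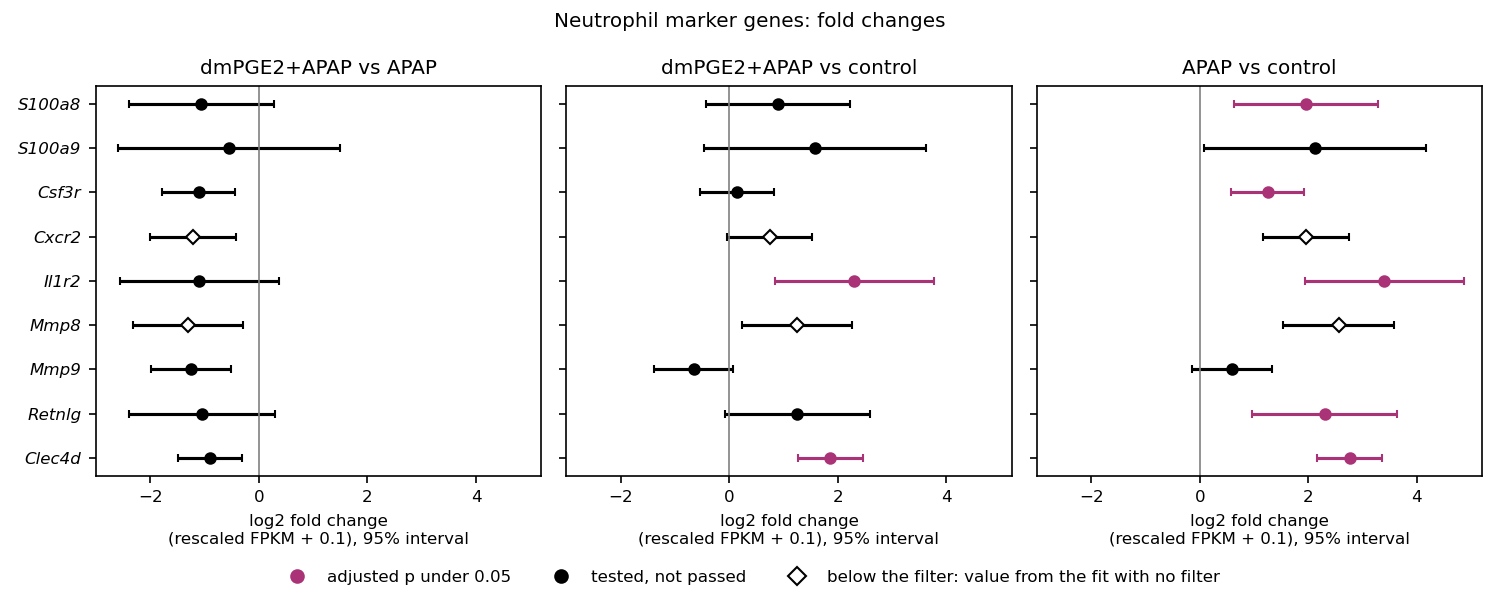
Log2 fold changes (points) with 95% intervals from limma for 9 marker genes in dmPGE2+APAP against APAP, dmPGE2+APAP against control and APAP against control livers. Purple points passed at an adjusted p under 0.05, 0 in the left panel, 2 in the middle and 5 in the right, and open diamonds (Cxcr2, Mmp8) come from the fit with no filter on low values.

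All libraries of APAP livers were above all controls for 7 of the 10 genes (S100a8, Csf3r, Cxcr2, Il1r2, Mmp8, Retnlg and Clec4d), where this held for 13.4% of the 17519 genes detected in at least 1 library. The median log2 fold change of APAP over control, with no filter, was 2.05 over the 10 genes and 0.017 over all genes. All dmPGE2+APAP libraries were above all controls for 4 of the 10 (S100a9, Il1r2, Mmp8 and Clec4d), against 10.6% of all detected genes, and below them for Mmp9 alone, against 23%. Here the medians were 1.07 over the 10 genes and 0.0069 over all genes. These comparisons with saline share the control libraries.

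For dmPGE2+APAP against APAP, all libraries of the pretreated livers were below all APAP libraries for 5 of the 10 genes (Csf3r, Cxcr2, Mmp8, Mmp9 and Clec4d), where 8.27% of all detected genes were separated in that direction. The medians were −1.08 over the 10 genes and −0.0023 over all genes. Among the 7 tested genes the log2 differences ran from −1.25 for Mmp9 to −0.55 for S100a9, and 3 (Mmp9, Csf3r and Clec4d) had an unadjusted limma p under 0.05, where 9.18% of all genes tested did. Clec4d passed the filter through the APAP libraries alone, and Mmp9 with no dmPGE2+APAP library at 0.5 FPKM. The place of both among the 3 is thus partly set by the filter. None of the 7 passed after adjustment over all genes (limma adjusted p from 0.327 to 0.878). For Csf3r the log2 difference was −1.11 (95% interval from −1.79 to −0.43) and for Clec4d −0.90 (from −1.50 to −0.30). For S100a8 (−1.06, from −2.39 to 0.27), Retnlg (−1.05, from −2.39 to 0.29) and Il1r2 (−1.09, from −2.56 to 0.37) the intervals included 0. APAP replicate 1 weighed on several of these values, and without it the log2 difference was −0.46 for S100a8, −0.36 for Retnlg, −0.47 for Il1r2, −0.80 for Csf3r, −1.05 for Mmp9 and −0.74 for Clec4d, and it turned to 0.51 for S100a9.

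The marker genes also differed from library to library inside a group. Their FPKM summed to 8.43, 12.5 and 6.10 in dmPGE2+APAP replicates 1 to 3, to 47.4, 11.1 and 13.5 in APAP replicates and to 7.30, 3.88 and 2.84 in control replicates. APAP replicate 1 held more than the other libraries of its group together, and dmPGE2+APAP replicate 2 lay above APAP replicate 2. Within the dmPGE2+APAP group replicate 2 was the highest for 8 of the 10 genes, and within controls replicate 1 was the highest for 6. Calprotectin made up 54.7%, 65.5% and 61.0% of the sum in dmPGE2+APAP replicates, 63.4%, 63.1% and 40% in APAP replicates and 72.7%, 50.7% and 51.6% in control replicates.

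**Figure D3:**
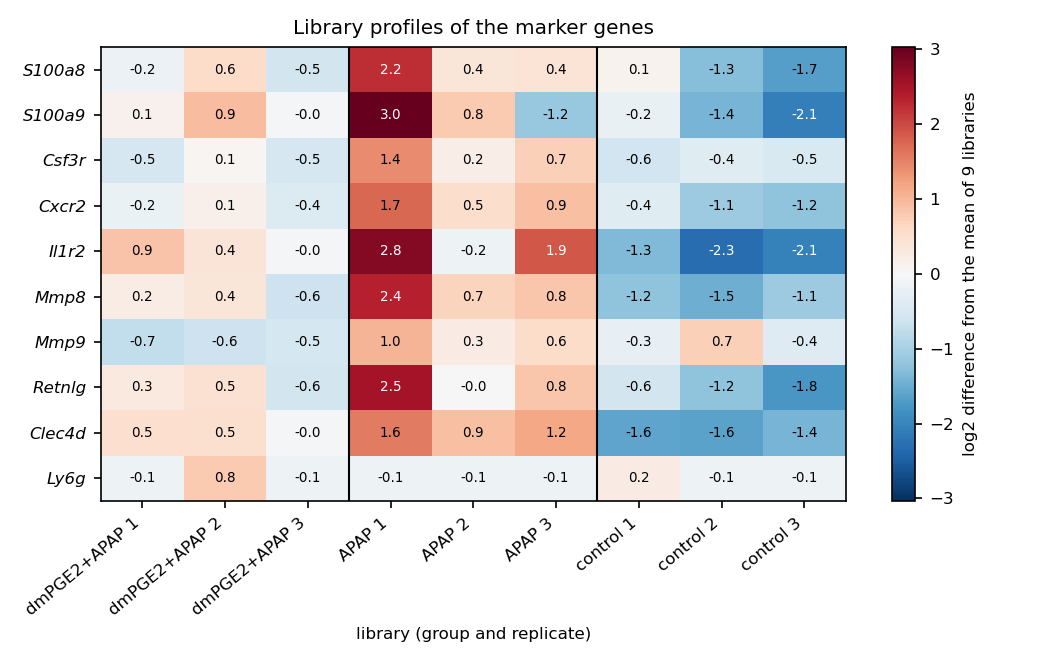
Rescaled log2 values of the 10 marker genes in each library, shown as the difference from the gene's mean over the 9 libraries (red higher, blue lower). The column of APAP replicate 1 is the reddest, S100a9 in APAP replicate 3 is blue while Il1r2 is red there, and the Mmp9 row is blue in all 3 dmPGE2+APAP libraries.

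The genes closest to the mean profile of S100a8 and S100a9 were found as the tested genes with the smallest root mean square difference of centred log2 values over the 9 libraries. The nearest 5 outside the marker set were Hist2h3c1, a histone H3 gene (0.645), Cbfa2t3, a transcriptional corepressor (0.648), Srgn, the core protein of serglycin in granules of blood cells (0.694), Hsp90aa1, a chaperone (0.729), and Ten1, a telomere protein (0.731). The median over all tested genes was 1.24. Among the marker genes Retnlg (0.512), Cxcr2 (0.617) and Mmp8 (0.653) lay in the same range, while Mmp9 (1.18) and Ly6g (1.20) were no closer than many other genes. Hist2h3c1 was at 1.36, 1.08 and 0.748 FPKM in dmPGE2+APAP replicates, at 9.97, 1.27 and 1.98 FPKM in APAP replicates and at 0.450, 0.402 and 0.373 FPKM in control replicates, so it shares the high value of APAP replicate 1.

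Ligands of the marker receptors were measured in the same libraries. Of 13 chemoattractant and growth factor genes 5 were tested, and 3 rose and 1 fell in APAP livers over control. Over all 11557 genes tested, 11% rose and 1142 genes fell in this comparison. Cxcl2 and Ppbp passed the filter through treated libraries alone. Cxcl2, a ligand of CXCR2, was at 2.87, 0.830 and 0.446 FPKM in dmPGE2+APAP replicates 1 to 3, at 4.46, 1.39 and 2.56 FPKM in APAP replicates and at 0.0297, 0.126 and 0.0467 FPKM in control replicates. It was above control in all 6 treated libraries, and rose by log2 4.07 in APAP livers (limma adjusted p = 0.00242) and by log2 2.90 in dmPGE2+APAP livers (limma adjusted p = 0.0133, and 0.0886 with 1 added before the log). With 0.01 or 1 added, the APAP value was 5.32 or 1.78, and without dmPGE2+APAP replicate 1 the dmPGE2+APAP value was 2.19. Cxcl1, another CXCR2 ligand, was at 6.59, 1.25 and 1.71 FPKM in dmPGE2+APAP replicates, at 11.1, 4.74 and 15.0 FPKM in APAP replicates and at 1.74, 1.72 and 2.20 FPKM in control replicates. Its APAP libraries were all above control and its dmPGE2+APAP libraries straddled control.

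Cxcl1 rose in APAP livers by log2 2.35 (limma adjusted p = 0.0207), a call lost without APAP replicate 1 or 3 or control replicate 1 or 2 (limma adjusted p from 0.0549 to 0.0782). Ppbp, a platelet chemokine whose cleaved form binds CXCR2, rose by log2 4.10 in APAP livers over control (limma adjusted p = 0.000706). It also rose by log2 1.61 in dmPGE2+APAP livers (limma adjusted p = 0.0473), a call lost without any 1 of the APAP or control libraries or dmPGE2+APAP replicate 2 (limma adjusted p from 0.052 to 0.109), and with 1 added before the log, no filter, quantile normalization, no trend or the 2 groups alone (from 0.0536 to 0.104). Without dmPGE2+APAP replicate 1 that log2 value was 0.91. Cxcl12, which holds neutrophils in the bone marrow, fell by 0.92 on the log2 scale in APAP livers over control (limma adjusted p = 0.0127). Csf3, the gene of G-CSF itself, reached at most 0.101 FPKM, Cxcl3 0.149 and Cxcl5 0.174, and none was tested. In dmPGE2+APAP against APAP livers 0 of the 5 passed in limma (2 at an unadjusted p under 0.05).

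Of the 20 ligands, inhibitors and partners of the marker proteins, which include the chemokines above, 13 were tested, and 5 rose in APAP livers over control. In dmPGE2+APAP livers 4 rose and 1 fell over control. Over all 11557 genes tested, 11% rose in APAP livers, and in dmPGE2+APAP livers 8.7% rose and 877 genes fell. Il1r1, the signalling receptor of interleukin-1, was at 33.9, 25.9 and 31.3 FPKM in dmPGE2+APAP replicates, at 22.6, 28.7 and 26.8 FPKM in APAP replicates and at 15.3, 8.76 and 13.2 FPKM in control replicates. All treated libraries were above control, and it rose by log2 1.45 in dmPGE2+APAP livers and by log2 1.20 in APAP livers (limma adjusted p of 0.00218 and 0.00422). Per length it was more abundant than the decoy Il1r2 in all 9 libraries.

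Il1b, a ligand of both receptors, was at 0.955, 0.826 and 0.298 FPKM in dmPGE2+APAP replicates, at 3.81, 1.35 and 2.51 FPKM in APAP replicates and at 1.32, 0.776 and 1.67 FPKM in control replicates. The dmPGE2+APAP libraries were below all APAP libraries, but no comparison of it passed (limma adjusted p = 0.327 for dmPGE2+APAP against APAP). Timp3, an inhibitor of metalloproteinases, rose by log2 0.66 in dmPGE2+APAP livers and by log2 0.44 in APAP livers over control (limma adjusted p of 0.00365 and 0.0173, the second 0.0502 without APAP replicate 1). Timp1 reached at most 0.177 FPKM. Tlr4, a receptor that calprotectin can activate, was at 0.589, 0.313 and 0.435 FPKM in dmPGE2+APAP replicates, at 0.588, 0.657 and 0.899 FPKM in APAP replicates and at 0.961, 1.09 and 1.55 FPKM in control replicates. It fell by 1.13 on the log2 scale in dmPGE2+APAP livers over control (limma adjusted p = 0.0159, and 0.0554 without dmPGE2+APAP replicate 2).

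A wider list of 25 neutrophil surface and effector genes gave a mixed picture, with 17 tested. In APAP livers 5 rose and 1 fell over control, and in dmPGE2+APAP livers 4 rose and 1 fell, with 0 of 17 passing between dmPGE2+APAP and APAP in limma (0 at an unadjusted p under 0.05). Of all 11557 genes tested, 11% rose and 1142 genes fell in APAP livers over control. In dmPGE2+APAP livers 8.7% rose and 877 fell. Trem1, an activating receptor of neutrophils and monocytes, was at 0.521, 0.233 and 0.195 FPKM in dmPGE2+APAP replicates, at 0.796, 0.360 and 0.549 FPKM in APAP replicates and at 0.0495, 0 and 0 FPKM in control replicates. It rose by log2 1.83 in dmPGE2+APAP and by log2 2.52 in APAP livers over control (limma adjusted p of 0.0131 and 0.00254), the first lost with 1 added before the log and with quantile normalization (0.0729 and 0.0728). Trem1 passed the filter through treated libraries alone. Since control values are near 0, the sizes rest on the constant added before the log: with 0.01 or 1 the log2 value was 4.11 or 0.38 for dmPGE2+APAP and 4.97 or 0.63 for APAP. Cd300lf, an inhibitory receptor of myeloid cells, rose by log2 1.99 and 2.13 in these groups (limma adjusted p of 0.00458 and 0.00267), and Hdc, which makes histamine, by log2 1.56 and 1.59 (limma adjusted p of 0.005 and 0.00375). Hcar2, a receptor for ketone bodies, rose in APAP livers over control (log2 1.81, limma adjusted p = 0.0405), a call lost without any 1 of the libraries except dmPGE2+APAP replicate 1 or 3 or APAP replicate 2 (limma adjusted p from 0.0611 to 0.133), and in 4 other settings (from 0.0533 to 0.151). Hcar2 also passed the filter through treated libraries alone.

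Fpr1, the receptor for formylated peptides of bacteria and mitochondria, went the other way, and is named with Mxd1 because its values were seen. It was at 0.519, 0.675 and 0.325 FPKM in dmPGE2+APAP replicates, at 0.730, 0.822 and 0.804 FPKM in APAP replicates and at 2.25, 2.06 and 1.40 FPKM in control replicates. Every treated library was below every control. It fell by 1.62 on the log2 scale in dmPGE2+APAP livers over control (limma adjusted p = 0.00392) and by 1.05 in APAP livers (limma adjusted p = 0.0204). The APAP call was lost without APAP replicate 1 or 3 or control replicate 1 or 2 (limma adjusted p from 0.0594 to 0.0681). Mxd1, a repressor of the Myc network, rose by log2 0.87 and 0.83 in the dmPGE2+APAP and APAP groups (limma adjusted p of 0.00324 and 0.00333). Of the 25, Lrg1 is also a secreted product of hepatocytes, and at 147 to 512 FPKM it made up most of the list's sum.

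Of 13 granule and maturation genes that neutrophils transcribe while still in the bone marrow, 9 stayed below 0.5 FPKM in all 9 libraries, and Camp, Ctsg and Fcnb among them were listed at 0 throughout. Lcn2 and Cebpe were tested, and both were above 0.5 FPKM in all 9 libraries. Mpo, myeloperoxidase, reached at most 0.0285 FPKM and Elane, neutrophil elastase, 0.190 FPKM. Prtn3, a granule protease, reached 1.27 FPKM in control replicate 1 and at most 0.368 FPKM elsewhere, and Pglyrp1, a granule protein that binds bacterial cell walls, reached 0.572 FPKM in APAP replicate 1. Lcn2, which injured hepatocytes also secrete, was at 11.8, 4.69 and 5.2 FPKM in dmPGE2+APAP replicates, at 16.4, 10.9 and 11.1 FPKM in APAP replicates and at 17.7, 2.75 and 1.19 FPKM in control replicates, and did not pass in any comparison. Cebpe, a transcription factor of granulocyte maturation, fell by 1.02 on the log2 scale in APAP livers over control (limma adjusted p = 0.023), a call lost without APAP replicate 2 or 3 or control replicate 2 or 3 (limma adjusted p from 0.0594 to 0.0805).

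**Figure D4:**
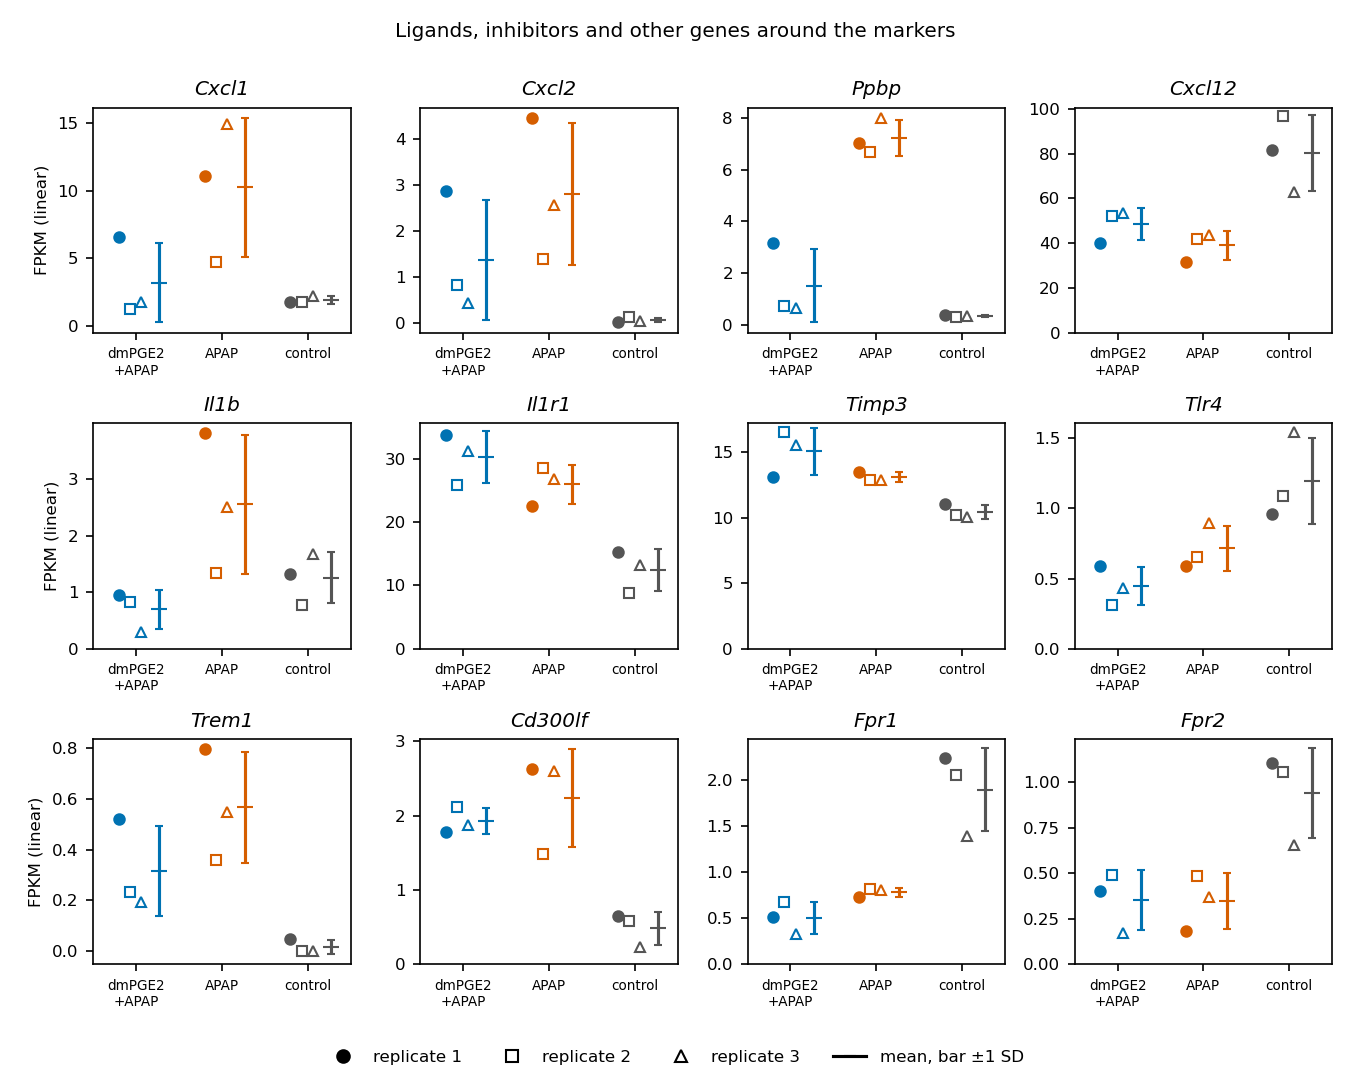
FPKM (linear axes) of 12 ligands, inhibitors and other genes around the markers in each library of the dmPGE2+APAP, APAP and control groups, with the group mean and SD (n = 3) beside the points. Cxcl2, Ppbp, Il1r1, Timp3, Trem1 and Cd300lf are above control in every treated library, and Cxcl12, Tlr4, Fpr1 and Fpr2 are below it. The share of all genes in these orders in both treated groups was not counted.

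Genes of the vessel wall to which leukocytes attach rose in part. Of 10 tested endothelial adhesion genes 4 rose in dmPGE2+APAP livers and 2 in APAP livers over control, and 0 passed between dmPGE2+APAP and APAP in limma (4 at an unadjusted p under 0.05). Over all genes tested, 8.7% rose in dmPGE2+APAP livers and 11% in APAP livers over control. Vcam1, which binds leukocyte integrins, rose by log2 1.69 in dmPGE2+APAP and by log2 1.20 in APAP livers (limma adjusted p of 0.00063 and 0.00254), and Esam, a junction protein, by log2 1.23 and 1.02 (limma adjusted p of 0.00028 and 0.000495). Cdh5, the endothelial cadherin, rose by log2 0.64 in dmPGE2+APAP livers (limma adjusted p = 0.0129, and 0.0503 without dmPGE2+APAP replicate 2). F11r, a junction protein, was the other gene called there (log2 0.35, limma adjusted p = 0.0464). That call was lost without each library in turn except control replicate 1 (up to 0.14), and among other settings without rescaling (0.145) and with quantile normalization (0.0977). Icam1, a ligand of the neutrophil integrins, was at 3.80, 4.88 and 3.87 FPKM in dmPGE2+APAP replicates, at 3.91, 3.23 and 4.41 FPKM in APAP replicates and at 5.42, 3.77 and 3.78 FPKM in control replicates, with no separation of the groups. Sele, E-selectin, reached at most 0.519 FPKM and was not tested.

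Markers of other blood cells were measured beside these genes, and their part in the results was not tested. Of 7 platelet markers 4 were tested (Pf4, Ppbp, Itga2b and Gp9). Of these 3 rose in dmPGE2+APAP livers and 4 in APAP livers over control, against 8.7% and 11% of all genes tested. Gp9 passed the filter through the APAP libraries alone, and Ppbp through treated libraries alone. The list summed to between 3.51 and 8.18 FPKM in dmPGE2+APAP, 14.5 and 18.2 in APAP and 1.69 and 2.12 in control livers. Of 5 erythroid markers 2 rose in APAP livers over control, against the same 11% of all genes tested. Their sum was between 364 and 389.6 FPKM in dmPGE2+APAP, 519.6 and 1114 in APAP and 361 and 495 in control livers, highest in APAP replicate 1, as for the marker genes. Monocyte markers summed to between 5.30 and 5.89 FPKM in dmPGE2+APAP, 4.97 and 7.33 in APAP and 3.98 and 7.37 in control livers, and the single tested gene of 8, Plac8, did not pass. Plac8 made up most of this sum in every library. Kupffer cell markers summed to between 177 and 187 FPKM in dmPGE2+APAP, 94.9 and 170.2 in APAP and 157 and 181 in control livers, with 0 of 11 passing in limma against control (1 at an unadjusted p under 0.05 for APAP and 0 for dmPGE2+APAP). Between dmPGE2+APAP and APAP livers 0 genes of the platelet, erythroid, monocyte and Kupffer lists passed in limma. An unadjusted limma p under 0.05 was found for 4 of 4 platelet, 4 of 5 erythroid, 0 of 1 monocyte and 3 of 11 Kupffer genes tested. Of all genes tested 9.18% had one. The median log2 differences of these lists were −1.56, −0.95, −0.038 and 0.47. Lymphocyte markers summed to at most 1.18 FPKM in dmPGE2+APAP, 0.946 in APAP and 2.25 in control livers. Those of eosinophils, basophils and mast cells summed to at most 0.138 FPKM in any library, with Mcpt8 and Cpa3 at 0 throughout.

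The transcript-level table deposited for lncRNA also lists 8 transcripts of 5 of the marker genes. S100a8-202 (ENSMUST00000198156, chromosome 3, from 90669311 to 90669964) was at 0.318, 0.339 and 0.516 FPKM in dmPGE2+APAP replicates, at 3.02, 1.46 and 1.51 FPKM in APAP replicates and at 0.248, 0.218 and 0.466 FPKM in control replicates. Its APAP libraries were all above the other 6, and the dmPGE2+APAP and control libraries overlapped. The gene value of S100a8 may leave out this RNA, and the values were not tested. Csf3r-204 (ENSMUST00000153968) was at 0.0302, 0.136 and 0 FPKM in dmPGE2+APAP replicates, at 0.355, 0.177 and 0.231 FPKM in APAP replicates and at 0.0596, 0.190 and 0.104 FPKM in control replicates, where APAP and control overlapped. Mmp9-202 reached at most 0.267 FPKM, Mmp9-204 0.004, Csf3r-203 was at 0 in all libraries, and Clec4d-OT1 was above 0 in dmPGE2+APAP replicate 2 alone.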

How the data were processed

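Per the labels' protocols, ribosomal RNA was removed from total liver RNA and the second strand was marked with dUTP. Per the submitters' processing notes, HISAT2 and the build GRCm38 (mm10) were used. The quantifier, its use of strand and the annotation release are not given in the sources used here. The authors deposited FPKM per gene and per transcript, 1 column for each library. Values in the other deposited tables, titled as counts, are scores: for transcripts with a score of at least 1000 the score equals FPKM times genomic span times a constant, within 1% for 100% of them, so no count test was possible and depth is unknown. Control columns carry a name absent from the labels and were assigned because the others name the treated groups.

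FPKM were divided by a trimmed-mean scale factor (30% by ratio, 5% by abundance), 0.1 was added and log2 taken. Whether groups overlap was judged on FPKM before this rescaling. Genes with at least 0.5 FPKM in 3 libraries entered limma 3.58.1 (R 4.3.3), with all 9 libraries, 3 group means, an abundance trend, 6 residual degrees of freedom before moderation, and p-values (two-sided) adjusted by Benjamini-Hochberg over all genes tested, with a threshold of 0.05. The script was tested on simulated data. An exact test of 3 against 3 libraries cannot give a p under 0.1. Members and gene lists were chosen with earlier results of these data known. Named were all members, up to 4 called genes of each list by fold size, and genes that are ligands, receptors or inhibitors of members, and the 5 genes of nearest pattern. Alternatives changed the added constant (0.01, 1), filter, scaling, trend, libraries fitted, a replicate block and each library left out. When a library was left out, the genes tested were those chosen with all 9.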

Additional observations from a re-analysis of the deposited data

Results flagged for a closer look

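In the transcript table deposited for lncRNA, which the tests did not use, 3 transcripts of the marker genes were above every control library in all 3 APAP libraries. The other transcripts of marker genes listed there were not. The share of all transcripts in this order was not counted. At gene level it was 13.4% of the genes detected. S100a8-202 averaged 0.391 ± 0.109 FPKM in dmPGE2+APAP, 1.997 ± 0.886 in APAP and 0.310 ± 0.136 in control livers. Il1r2-OT1, an assembled transcript over the last part of Il1r2, averaged 0.0552 ± 0.0524 FPKM in dmPGE2+APAP, 0.350 ± 0.272 in APAP and 0.00297 ± 0.00512 in control livers. Clec4d-202 averaged 0.103 ± 0.120 FPKM in dmPGE2+APAP livers and 0.173 ± 0.118 in APAP livers, and was listed at 0 in all controls.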

How the results depend on the processing

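With limma, the number of marker genes called for APAP over control was between 3 and 5 when each library was left out in turn (5 with all, 3 without APAP replicate 3 or control replicate 2 or 3). For dmPGE2+APAP over control it was between 1 and 2 (2 with all, 2 without APAP replicate 1 or 2 and 1 without any other), and 1 with pseudocount 1, with no filter or with quantile normalization. For dmPGE2+APAP against APAP it was 0 in all 18 alternatives. Over all genes, leaving out each library gave between 1544 (without APAP replicate 3) and 2322 calls for APAP over control, between 1042 (without dmPGE2+APAP replicate 2) and 1843 for dmPGE2+APAP over control and between 0 and 50 (without dmPGE2+APAP replicate 1) for dmPGE2+APAP against APAP. For dmPGE2+APAP over control, 1154 genes passed without dmPGE2+APAP replicate 3 and 1223 without control replicate 2. The comparison with APAP gave 2 when its own groups alone were fitted. Signs of the tested marker genes reversed in 2 cases, both without a call: Csf3r in dmPGE2+APAP over control was at −0.053 without dmPGE2+APAP replicate 2 (up to 0.231 with another library left out), and S100a9 in dmPGE2+APAP against APAP was at 0.51 without APAP replicate 1 (down to −1.57 with another left out). The causes were not tested. No pairing by library number was seen: deviations of equally numbered libraries correlated between −0.12 and 0.07, and those of unequally numbered libraries between −0.15 and 0.15. With 3 libraries a group this check cannot show that the samples were unpaired. With the replicate block, 2044, 1480 and 0 genes and 5, 2 and 0 marker genes passed for APAP over control, dmPGE2+APAP over control and dmPGE2+APAP against APAP. Depth is unknown, so the counting error of values below 1 FPKM could not be given.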

Other observations

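Ccr2, a receptor that draws monocytes from the blood, was at 0.0398, 0.0651 and 0.0189 FPKM in dmPGE2+APAP replicates, at 0.0557, 0.0364 and 0.123 FPKM in APAP replicates and at 0.609, 0.472 and 0.791 FPKM in control replicates. Every treated library was below every control. The gene was below the filter and was not tested, and it was picked, like the next gene, after its values were seen. Ly6c2, another monocyte gene, was at 0.231, 0.240 and 0.240 FPKM in dmPGE2+APAP replicates, at 0.189, 0.0679 and 0.0161 FPKM in APAP replicates and at 0.451, 0.243 and 0.491 FPKM in control replicates. Before rescaling its treated libraries were also all below control, but nearly tied, with the highest at 0.2401 FPKM and the lowest control at 0.2428 FPKM. Rescaling divides by 0.948, 0.986 and 0.953 in dmPGE2+APAP replicates 1 to 3 and by 1.04 in control replicate 2. After it, all dmPGE2+APAP libraries lay above that control. For dmPGE2+APAP against control, 23% of all detected genes lay below control in this way before rescaling. The share for APAP against control is not given here. Of the other 6 genes of the monocyte list, Cx3cr1 alone had every treated library below every control. Plac8 averaged 5.16 FPKM in dmPGE2+APAP, 5.44 in APAP and 4.27 in control livers, F13a1 averaged 0.0447, 0.276 and 0.122 FPKM in these groups, Vcan 0.0122, 0.0423 and 0.0208 FPKM and Chil3 0.0701, 0.370 and 0.349 FPKM. Cx3cr1 averaged 0.0199, 0.0423 and 0.174 FPKM and Ms4a4c 0.0427, 0.0682 and 0.186 FPKM.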
